A study of Mus musculus with 24 samples.

Results

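Beside Rspo3, the gene that defines the cell fractions of the study, the mouse genome encodes the R-spondins Rspo1, Rspo2 and Rspo4, the receptors Lgr4, Lgr5 and Lgr6, and the membrane ubiquitin ligases Rnf43 and Znrf3 on which the ligands act. These 8 genes of the 54418 in the table of estimated counts were chosen by symbol through their Ensembl gene IDs, and no measured value entered the choice. All 8 were found, and 6 had enough counts for the test, while Rspo4 and Lgr6 did not.

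R-spondins are secreted proteins that strengthen Wnt signaling without being Wnt ligands themselves. An R-spondin holds an Lgr receptor and a ligase of the Rnf43 and Znrf3 pair together, the ligase is cleared from the cell surface, and Frizzled receptors that it would have marked for degradation accumulate. In the gut, R-spondins made by the stroma maintain Wnt activity in the stem cells of the crypt base, where Lgr5 marks the stem cells and Rnf43 and Znrf3 limit their response.

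RNA was sequenced from 24 libraries of mouse intestinal stromal cells in 8 groups of 3. Cells were sorted as CD31+ or CD31-, CD31 being the product of Pecam1 on endothelial cells, and as positive or negative for GFP from an Rspo3 transgene, in colon and in small intestine. The groups were therefore colon CD31+ Rspo3+, colon CD31+ Rspo3-, colon CD31- Rspo3+, colon CD31- Rspo3-, and the same 4 combinations of the small intestine. All groups shared a C57Bl6 background, an age of 8 to 12 weeks, the transgene as the basis of the sort, and the removal of cells bearing Epcam (an epithelial protein) or CD45 (a leukocyte protein). The sign of Rspo3 is the sign of a reporter and not of the protein, and each group is a mixture of the cell types that share a gate. Whether 3 libraries of a group stem from 3 animals is not stated, so a p-value here reflects the spread among these libraries, possibly of technical origin.

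Estimated counts summed to 8462041 to 29214487 per library, with a median of 17881736. Levels of 1 gene across groups are given in CPM (counts put on 1 library size by TMM factors), and levels of different genes are set side by side only in TPM, which corrects for transcript length. The sort was visible in the sorted genes, with Rspo3 at 139 to 450 CPM in the 12 Rspo3+ libraries and 11.1 to 24.1 CPM in the 12 Rspo3- libraries, and Pecam1 at 347 to 1486 CPM in CD31+ libraries and 8.18 to 43.9 CPM in CD31- libraries. Some colonic libraries stood apart by markers of other cells. Colon CD31- Rspo3+ library 3 held 197 CPM of Epcam and 72.8 CPM of the leukocyte gene Ptprc, against 4.20 to 15.3 and 2.76 to 3.71 CPM in the other libraries of its group. Colon CD31+ Rspo3- library 3 held 2467 CPM of the fibroblast gene Dcn, against 421 and 471 CPM in the others. Colon CD31+ Rspo3+ library 1 held 1730 CPM of Dcn, against 566 and 587 CPM in the others of its group, and without it the calls of Znrf3 between colon CD31+ Rspo3+ and Rspo3- cells (edgeR adjusted p = 0.184) and of Rspo2 between the tissues in CD31+ Rspo3+ cells (0.0767) were lost, while no other call of the 6 tested genes was. Library numbers follow the order of the table and were not used to pair libraries between groups.

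The ligands and the receptor Lgr5 divided the stroma along different lines. Rspo1 and Rspo2 were highest in CD31- Rspo3+ cells, the fraction in which fibroblast markers were also highest. Lgr5 was highest in CD31+ Rspo3+ cells, the fraction in which lymphatic endothelial markers were highest. Lgr4 was highest in CD31- Rspo3- cells of both tissues, where epithelial and enteric glia markers were high as well. Rnf43 was highest in small intestinal CD31- Rspo3- cells, where epithelial markers were highest. In bulk libraries, fewer cells of a type and less RNA per cell cannot be told apart.

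**Figure D1:**
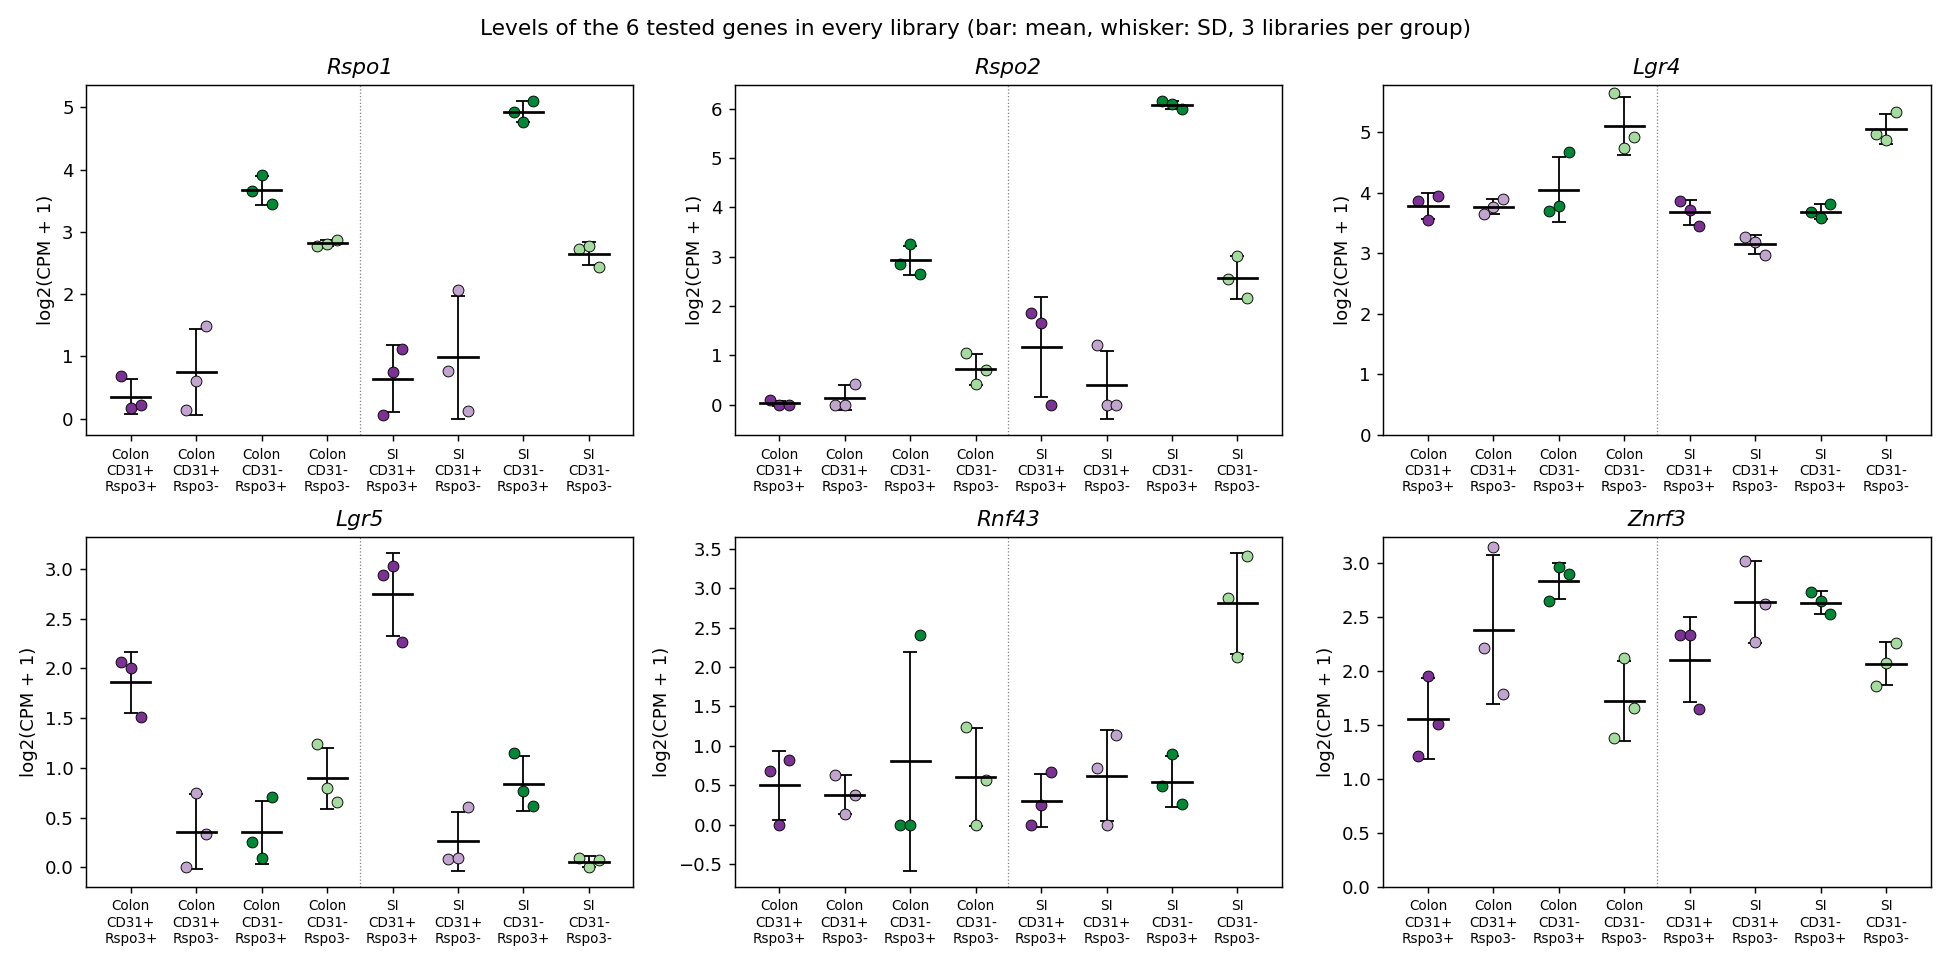
Levels of Rspo1, Rspo2, Lgr4, Lgr5, Rnf43 and Znrf3 as log2(CPM + 1) in each library (points) of the 8 groups on the horizontal axis, with the mean (bar) and SD (whisker) of 3 libraries. Rspo1 and Rspo2 peak in the small intestinal CD31- Rspo3+ libraries at 26.2 to 33.4 and 63.1 to 70.4 CPM, Lgr5 in the CD31+ Rspo3+ libraries, and Lgr4 in the CD31- Rspo3- libraries.

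Reference DNA upstream of a ligand and of a receptor is shown. Among members with an entry in the RefSeq promoter set used, these had the largest counts, Rspo1 with 3252 and Lgr4 with 7938 over all libraries. Each line gives the 250 bases before the annotated start on GRCm38.p6, from RefSeq, read in the direction of the transcript, with every CG dinucleotide in capitals. Rspo1 (ENSMUSG00000028871) lies on chromosome 4 from 124986430 to 125009099, plus strand, and its window is chr4:124986180-124986429. Lgr4 (ENSMUSG00000050199) lies on chromosome 2 from 109917647 to 110014257, plus strand, and its window is chr2:109917397-109917646.
Rspo1: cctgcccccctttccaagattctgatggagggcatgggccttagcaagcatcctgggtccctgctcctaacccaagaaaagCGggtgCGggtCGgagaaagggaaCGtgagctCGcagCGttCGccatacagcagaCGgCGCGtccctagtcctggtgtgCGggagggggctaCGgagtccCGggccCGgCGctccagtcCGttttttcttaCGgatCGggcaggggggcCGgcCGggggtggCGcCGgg
Lgr4: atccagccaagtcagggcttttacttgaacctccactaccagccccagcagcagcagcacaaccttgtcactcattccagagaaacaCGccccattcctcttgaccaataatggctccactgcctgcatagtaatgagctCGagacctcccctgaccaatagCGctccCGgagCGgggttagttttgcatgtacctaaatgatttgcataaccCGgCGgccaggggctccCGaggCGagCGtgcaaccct

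The Rspo1 window held 22 CG dinucleotides and the Lgr4 window 10, against a median of 6 over 32851 RefSeq promoter entries. The set of RefSeq promoter entries used here held 5 of the 8 genes (Rspo1, Rspo4, Lgr4, Lgr6 and Rnf43), and not Rspo2, Lgr5 and Znrf3. The 6-base motif CTTTGA, a core of the sites bound by Tcf and Lef factors, was searched on both strands of the 300 bases from 250 before to 50 after the start. None of the entries of the 5 genes held it, while 16% of all entries did, which says only that these letters are not in these windows.

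Rspo1, a secreted agonist that binds all of Lgr4, Lgr5 and Lgr6, was a gene of CD31- cells. Its level was 11.6, 14.0 and 9.86 CPM in colon CD31- Rspo3+ libraries, against 5.88, 5.98 and 6.31 CPM in colon CD31- Rspo3- libraries. Small intestinal levels were 29.4, 26.2 and 33.4 CPM in CD31- Rspo3+ libraries, against 5.64, 5.87 and 4.43 CPM in CD31- Rspo3- libraries. No CD31- Rspo3+ library overlapped the Rspo3- libraries of its tissue. In CD31+ cells Rspo1 reached at most 3.18 CPM, in small intestinal CD31+ Rspo3- library 2, and was under 2 CPM in the other 11 CD31+ libraries.

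The mean levels of Rspo1 fell into an order of 4 steps without overlap between neighbours, namely small intestinal CD31- Rspo3+ (29.7 ± 3.61 CPM, SD, n = 3), colon CD31- Rspo3+ (11.8 ± 2.10), colon CD31- Rspo3- (6.05 ± 0.226) and small intestinal CD31- Rspo3- (5.31 ± 0.771). The last of these steps was narrow, since the lowest colon CD31- Rspo3- library held 5.88 CPM and the highest small intestinal one 5.87 CPM. The 4 CD31+ groups followed with means of 0.297 to 1.33 CPM, and neighbours among them overlapped. Small intestinal CD31- Rspo3+ libraries were higher by 2.48 on the log2 scale (SE 0.855, edgeR quasi-likelihood adjusted p = 0.0331). This call was lost without any 1 of the 6 libraries (adjusted p = 0.0568 to 0.111). In the colon the log2 difference of 0.97 did not pass (SE 0.821, adjusted p = 0.537).

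Rspo2, which in mice serves limb and lung development and binds the same receptors, had a sharper peak. It was at 6.24, 8.53 and 5.31 CPM in colon CD31- Rspo3+ libraries, against 1.05, 0.330 and 0.621 CPM in colon CD31- Rspo3- libraries. Its small intestinal levels were 70.4, 66.9 and 63.1 CPM in CD31- Rspo3+ libraries, against 4.81, 7.11 and 3.46 CPM in CD31- Rspo3- libraries. The mean of small intestinal CD31- Rspo3+ cells was 9.98 times that of the next group, colon CD31- Rspo3+ cells, with no overlap. Colon CD31- Rspo3+ and small intestinal CD31- Rspo3- libraries overlapped, and so did all neighbours among the other 5 groups.

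Rspo2 was higher in Rspo3+ cells by 3.71 on the log2 scale in small intestinal CD31- stroma (SE 1.00, adjusted p = 0.00781) and by 3.35 in colon CD31- stroma (SE 1.03, adjusted p = 0.0476). The small intestinal call held under all alternatives tried. The colonic call was lost without Rspo3- library 1, 2 or 3 or Rspo3+ library 1 or 2 (adjusted p = 0.0849 to 0.16). Between the tissues, Rspo2 fell by 3.32 on the log2 scale in colon CD31- Rspo3+ cells relative to small intestinal ones (SE 0.984, edgeR adjusted p = 0.0463), a call lost without any 1 of the 6 libraries (0.0825 to 0.125) although the groups did not overlap. In CD31- Rspo3- cells the corresponding log2 difference of -2.96 missed the threshold (adjusted p = 0.0514), again without overlap.

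Rspo4, known in humans for its role in nail formation, was nearly absent from the counts. It had 3 counts in small intestinal CD31- Rspo3- library 2 and 0 counts in the other 23 libraries. A count of 0 over the 3 libraries of a group allows a level of up to 0.0466 to 0.0726 CPM, a limit that covers counting error only. Rspo4 was therefore not detectable at this depth in 7 of the 8 groups.

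Among R-spondin transcripts, Rspo1 and Rspo2 together took a minor share wherever the reporter was on, as the sort on Rspo3 fixes in part. In TPM, Rspo3 made up 99.9% of the R-spondin sum in colon CD31+ Rspo3+ cells and 99.1% in small intestinal CD31+ Rspo3+ cells (means of 3 libraries). It made up 88.4% in colon CD31- Rspo3+ cells and 72.5% in small intestinal CD31- Rspo3+ cells. The small intestinal remainder was 12.2% Rspo1 (11.7 to 12.8%) and 15.3% Rspo2 (13.6 to 17.0%), so that Rspo2 exceeded Rspo1 in all 3 libraries, with 28.6 ± 2.02 TPM against 22.9 ± 2.41 TPM. The colonic remainder leaned to Rspo1, with 8.59 ± 2.04 TPM against 2.72 ± 0.795 TPM of Rspo2.

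In reporter-negative CD31- stroma the other R-spondins took larger shares, as the sort on Rspo3 again fixes in part. Their own levels were lower there than in CD31- Rspo3+ cells. Small intestinal Rspo1 was at 4.07 TPM, against 22.9 TPM in CD31- Rspo3+ cells, and Rspo2 at 2.23 against 28.6 TPM. In the colon Rspo1 was at 5.66 against 8.59 TPM and Rspo2 at 0.341 against 2.72 TPM. Rspo1 took 42.3% of R-spondin TPM in colon CD31- Rspo3- cells (38.1 to 46.1%) and 31.2% in small intestinal CD31- Rspo3- cells (30.2 to 31.9%). Rspo2 took 2.59% in the colonic group and 16.6% in the small intestinal group (14.2 to 20.4%). The ranges of both shares were apart between the tissues.

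**Figure D2:**
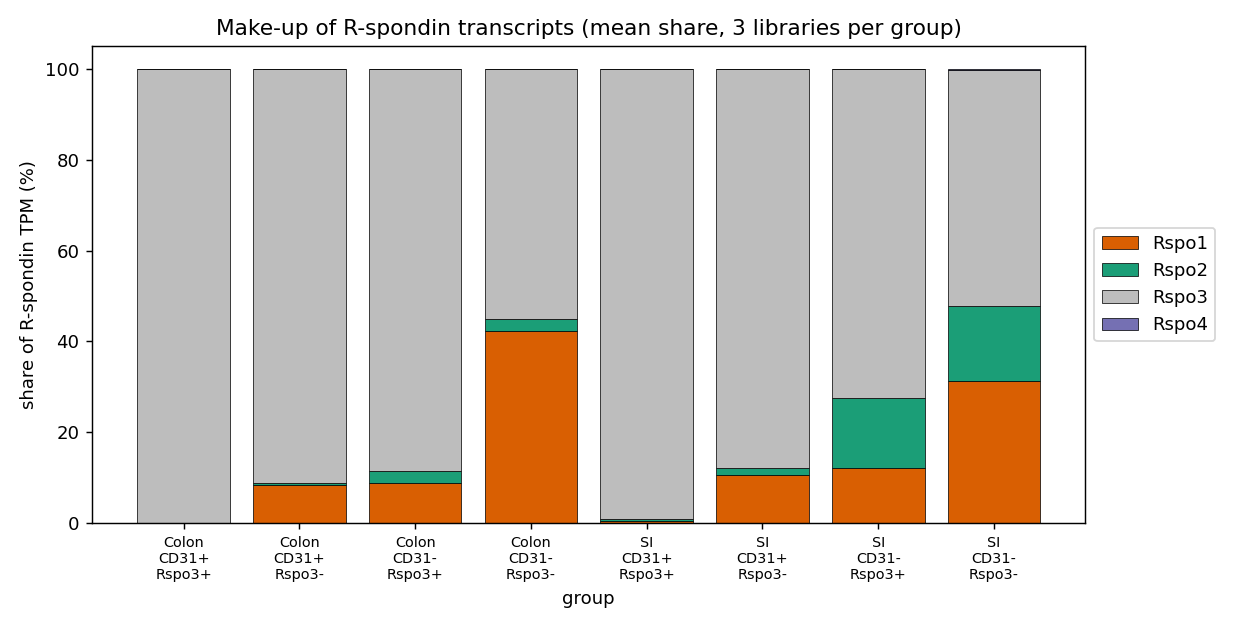
Mean share of summed R-spondin TPM (vertical axis, percent) taken by Rspo1, Rspo2, Rspo3 and Rspo4 in each of the 8 groups, 3 libraries per group. Rspo3 fills 99.9 and 99.1% in the CD31+ Rspo3+ groups of colon and small intestine, and Rspo1 takes 42.3 and 31.2% in their CD31- Rspo3- groups.

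The ligands also differed with CD31. Among Rspo3+ cells, Rspo1 fell by 5.29 in colon CD31+ cells relative to CD31- cells on the log2 scale (SE 1.03, edgeR adjusted p = 0.000439) and by 5.67 in small intestinal ones (SE 1.03, adjusted p = 0.000169). Rspo2 had 1 count in the 3 colon CD31+ Rspo3+ libraries and 278 counts in the 3 colon CD31- Rspo3+ libraries, which puts CD31- cells 341 times higher (95% counting interval 60.8 to 13533, adjusted p = 0.000409). Small intestinal Rspo2 was at 2.62, 2.15 and 0 CPM in CD31+ Rspo3+ libraries, far under the CD31- Rspo3+ libraries given above (log2 difference -5.32, SE 1.09, adjusted p = 0.000572). These 4 calls held under all alternatives tried.

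Among Rspo3- cells the CD31 differences of the ligands were smaller and less settled. Rspo1 was at 0.0998, 0.531 and 1.81 CPM in colon CD31+ Rspo3- libraries, against 5.88 to 6.31 CPM in CD31- Rspo3- libraries (log2 difference -2.87, SE 0.894, edgeR adjusted p = 0.0187). Its call was lost without CD31+ library 1 or 2 (adjusted p = 0.0781 and 0.0777). The small intestinal difference of -1.98 did not pass (adjusted p = 0.0747) but did without CD31+ Rspo3- library 2, the one with 3.18 CPM (-3.68, adjusted p = 0.00767). For Rspo2 the small intestinal difference of -3.44 passed (SE 1.07, adjusted p = 0.0143) and the colonic one of -2.36 did not (adjusted p = 0.15). The colonic difference passed without CD31+ Rspo3- library 3, which held all 8 Rspo2 counts of its group and the raised Dcn (-6.56, adjusted p = 0.028).

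Markers of fibroblasts were compared beside both ligands. The 7 fibroblast markers summed to 92402 to 104491 CPM in small intestinal CD31- Rspo3+ libraries, against 15557 to 21517 CPM in CD31- Rspo3- libraries, and 6 of 7 were called higher. In the colon the sums were 34979 to 64105 CPM in CD31- Rspo3+ libraries and 26981 to 32236 CPM in CD31- Rspo3- libraries, and 0 of 7 were called in edgeR in either direction (3 higher at an unadjusted p under 0.05, and 2 higher in DESeq2). All 7 were called lower in CD31+ than in CD31- cells in each of the 4 comparisons. The part of fibroblast content in the differences of Rspo1 and Rspo2 was not tested.

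Lgr4, the most widely expressed of the Lgr receptors, was found in all 24 libraries and was highest where the reporter and CD31 were both off. It was at 12.0, 12.8 and 24.5 CPM in colon CD31- Rspo3+ libraries, against 49.2, 25.9 and 29.3 CPM in CD31- Rspo3- libraries. The small intestinal levels were 11.8, 10.9 and 13.1 CPM in CD31- Rspo3+ libraries, against 30.4, 28.2 and 39.6 CPM in CD31- Rspo3- libraries. No library of either tissue overlapped between these groups, although colon Rspo3+ library 3, which stood apart by Epcam and Ptprc, came close to the lowest Rspo3- library.

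The log2 difference of Lgr4 between Rspo3+ and Rspo3- cells was -1.45 in small intestinal CD31- stroma (SE 0.270, edgeR adjusted p = 0.000395) and -1.08 in colon CD31- stroma (SE 0.268, adjusted p = 0.0144). The first call held under all alternatives. The second was lost without Rspo3- library 1, Rspo3+ library 1 or Rspo3+ library 2 (adjusted p = 0.0881 to 0.126), and was -1.49 without Rspo3+ library 3 (adjusted p = 0.00084). In CD31+ cells Lgr4 varied little, with 13.6, 10.7 and 14.4 CPM in colon Rspo3+ libraries against 11.6, 12.5 and 13.9 CPM in colon Rspo3- libraries. In the small intestine, CD31+ Rspo3+ libraries held 13.6, 12.2 and 9.96 CPM and CD31+ Rspo3- libraries 8.68, 8.17 and 6.89 CPM, which did not overlap but did not pass (log2 difference 0.59, adjusted p = 0.138).

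Among Rspo3- cells, Lgr4 was lower in CD31+ than in CD31- cells, by a log2 difference of -1.45 in the colon (SE 0.270, edgeR adjusted p = 0.000365) and -2.05 in the small intestine (SE 0.277, adjusted p = 7.58e-06). Both calls held under all alternatives. The order of the group means ran from colon and small intestinal CD31- Rspo3- cells (34.8 and 32.7 CPM, overlapping) to small intestinal CD31+ Rspo3- cells (7.91 CPM, no overlap with the next). The 5 groups between them had means of 11.9 to 16.4 CPM, and neighbours among them overlapped.

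Enteric glia markers, and between 2 and 14 of 15 epithelial markers, were lower in the 4 comparisons in which Lgr4 was lower. Epcam itself was at 15.3, 4.20 and 197 CPM in colon CD31- Rspo3+ libraries, against 326, 101 and 249 CPM in CD31- Rspo3- libraries, and at 6.62, 21.8 and 23.6 CPM in small intestinal CD31- Rspo3+ libraries, against 594, 686 and 1069 CPM in CD31- Rspo3- libraries. The 15 epithelial markers summed to 57.3 to 2567 CPM in colon CD31- Rspo3+ libraries and 1713 to 6347 CPM in CD31- Rspo3- libraries, with 0 called higher and 2 lower (Krt20 and Fabp1). Small intestinal sums were 134 to 492 CPM in CD31- Rspo3+ libraries and 13617 to 24440 CPM in CD31- Rspo3- libraries, with 0 called higher and 14 lower. None of the 15 was at 0 throughout any group, and in the CD31+ groups the sums were 94.2 to 1383 CPM. Among Rspo3- cells, 9 of the 15 were called lower in colon CD31+ than in CD31- cells and 13 in small intestinal ones.

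The 5 enteric glia markers were all called lower in each of these 4 comparisons. They summed to 5.97 to 20.4 CPM in colon CD31- Rspo3+ libraries, against 107 to 229 CPM in CD31- Rspo3- libraries, and to 4.40 to 10.5 CPM in small intestinal CD31- Rspo3+ libraries, against 87.2 to 97.7 CPM in CD31- Rspo3- libraries. Between CD31+ and CD31- Rspo3+ cells, where Lgr4 was not called, 0 of the 5 were called in either tissue in edgeR, in DESeq2 or at an unadjusted p under 0.05. Of the 15 epithelial markers, 0 were called there in edgeR in either tissue. In the colon 1 of the 15 was lower in DESeq2 and 1 at an unadjusted p under 0.05. The mitochondrial share of counts was 0.698 to 1.44% in colon CD31- Rspo3+ libraries, against 1.36 to 1.97% in CD31- Rspo3- libraries, and 0.69 to 1.27% in small intestinal CD31- Rspo3+ libraries, against 2.67 to 4.82% in CD31- Rspo3- libraries.

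Smooth muscle markers were lower in some of these comparisons, and in others in which Lgr4 was not. The 6 of them summed to 504 to 767 CPM in colon CD31- Rspo3+ libraries, against 3010 to 4366 CPM in CD31- Rspo3- libraries, with all 6 called lower. The corresponding small intestinal sums were 1102 to 1597 CPM in CD31- Rspo3+ libraries and 1325 to 2037 CPM in CD31- Rspo3- libraries, with 0 called in edgeR, in DESeq2 or at an unadjusted p under 0.05. All 6 were also called lower in CD31+ than in CD31- Rspo3+ cells of both tissues, where Lgr4 was not. In CD31- Rspo3+ relative to CD31- Rspo3- cells, 5 of 5 pericyte markers were lower in the colon and 3 of 5 in the small intestine. Mesothelial markers were lower in 4 of 4 cases in the small intestine, and in the colon 0 passed in edgeR, 1 in DESeq2 and 4 at an unadjusted p under 0.05. The part of any of these cell types, or of the mitochondrial share, in the Lgr4 differences was not tested.

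Lgr5, the marker of intestinal crypt stem cells, had the highest levels of the series in CD31+ Rspo3+ cells. Colonic levels were 3.19, 3.00 and 1.84 CPM in colon CD31+ Rspo3+ libraries, against 0, 0.675 and 0.259 CPM in colon CD31+ Rspo3- libraries. Levels of 6.66, 7.18 and 3.79 CPM were found in small intestinal CD31+ Rspo3+ libraries, against 0.0590, 0.0692 and 0.517 CPM in CD31+ Rspo3- libraries. All CD31+ Rspo3+ libraries lay above every library of the other 6 groups. The gene is low in absolute terms, with 580 counts in all, of which 294 came from small intestinal and 134 from colon CD31+ Rspo3+ libraries.

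The log2 difference of Lgr5 between Rspo3+ and Rspo3- CD31+ cells was 3.07 in the colon (SE 0.924, edgeR adjusted p = 0.02) and 4.82 in the small intestine (SE 1.02, adjusted p = 0.00175). The small intestinal call held under all alternatives, and the colonic one was lost without CD31+ Rspo3- library 1 or 3 (adjusted p = 0.0573 and 0.0643). Small intestinal CD31+ Rspo3+ cells had 2.19 times the mean of colonic ones without overlap, but the log2 difference of colon to small intestine of -1.14 did not pass (adjusted p = 0.514). Among Rspo3+ cells, Lgr5 was higher in CD31+ than in CD31- cells by 3.11 in the colon (SE 0.947, adjusted p = 0.0154) and by 2.84 in the small intestine (SE 0.892, adjusted p = 0.0163). These calls were lost without colon CD31- library 1 or 2 (adjusted p = 0.0589 and 0.0625) and without small intestinal CD31- library 2 or 3 (0.0617 and 0.0575).

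In CD31- cells Lgr5 was lower, at 0 to 1.36 CPM. Small intestinal CD31- Rspo3+ libraries held 1.21, 0.697 and 0.535 CPM, against 0.0692, 0 and 0.0541 CPM in CD31- Rspo3- libraries, or 54 counts against 3, a ratio of 16.7 (95% counting interval 5.43 to 83.7, edgeR adjusted p = 0.00944). Colon CD31- Rspo3+ libraries held 0.195, 0.0656 and 0.632 CPM, against 1.36, 0.733 and 0.573 CPM in CD31- Rspo3- libraries, which overlapped (log2 difference -1.52, adjusted p = 0.354). The overlap rested on Rspo3+ library 3, which stood apart by Epcam and Ptprc and held 10 of the 13 Lgr5 counts of its group. Without it and colon CD31+ Rspo3- library 3, the difference was -2.78 and did not pass (edgeR adjusted p = 0.148). Between the CD31- Rspo3- groups, colon had 54 counts and small intestine 3, a ratio of 16.6 (5.40 to 83.2, adjusted p = 0.0136). That call was lost without small intestinal library 2 or 3 (adjusted p = 0.0548 and 0.0585).

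Lymphatic endothelial markers were higher in the 5 comparisons in which Lgr5 was higher between reporter or CD31 fractions, and in others in which it was not. The lymphatic transcription factor Prox1 was at 394, 348 and 391 CPM in colon CD31+ Rspo3+ libraries, against 31.2, 44.9 and 19.8 CPM in CD31+ Rspo3- libraries, and at 629, 677 and 404 CPM in small intestinal CD31+ Rspo3+ libraries, against 72.5, 84.6 and 94.0 CPM in CD31+ Rspo3- libraries. The 7 lymphatic markers summed to 39947 to 50696 CPM in colon CD31+ Rspo3+ libraries and 1911 to 2410 CPM in CD31+ Rspo3- libraries, and to 29914 to 33976 and 3113 to 6002 CPM in the small intestinal groups, with 7 of 7 called higher in each tissue. In small intestinal CD31- cells they summed to 284 to 728 CPM in Rspo3+ libraries and 45.3 to 68.5 CPM in Rspo3- libraries, with 6 of 7 called higher, and between CD31+ and CD31- Rspo3+ cells all 7 were higher in both tissues. In colon CD31- cells, where Lgr5 was not called, they summed to 208 to 256 CPM in Rspo3+ libraries and 80.2 to 128 CPM in Rspo3- libraries, with 5 of 7 called higher. Between CD31+ and CD31- Rspo3- cells 6 were higher and 1 lower in each tissue, beside Lgr5 differences of -1.48 in the colon and 1.94 in the small intestine that did not pass. The part of lymphatic content in the Lgr5 differences was not tested.

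The crypt stem cell gene Olfm4 was at 0.964 to 2.02 CPM in small intestinal CD31+ Rspo3+ libraries and at 0.689 to 11.3 CPM in CD31+ Rspo3- libraries, and had at most 2 counts in any colonic group. Of the 8 crypt epithelial markers, 5 were above 0 in colon CD31+ Rspo3+ libraries and 6 in colon CD31+ Rspo3- libraries. In each small intestinal CD31+ group 7 of 8 were above 0. Ascl2 was at 0 in both colon CD31+ groups. Mmp7 was at 0 in the CD31+ groups of both tissues and in colon CD31- Rspo3+ libraries. Olfm4 was at 0 also in colon CD31- Rspo3- libraries, where the 15 epithelial markers summed to 1713 to 6347 CPM. Its colonic level therefore cannot tell whether epithelial cells were present. The 8 crypt epithelial markers summed to 17.8 to 29.2 CPM in colon CD31+ Rspo3+ libraries and 70.8 to 103 CPM in CD31+ Rspo3- libraries. The sums were 30.1 to 56.3 CPM in small intestinal CD31+ Rspo3+ libraries and 57.6 to 110 CPM in CD31+ Rspo3- libraries. Of the 8, 0 were called higher in Rspo3+ than in Rspo3- CD31+ cells of either tissue, and 1 in the colon and 2 in the small intestine were called lower. In small intestinal CD31- cells the sums were 650 to 858 CPM in Rspo3+ libraries and 216 to 351 CPM in Rspo3- libraries. There 1 of 8 was called higher, Smoc2, which fibroblasts also express (671 CPM against 235 CPM, edgeR adjusted p = 0.0234). In CD31+ cells 0 of the 15 epithelial markers were called between Rspo3+ and Rspo3- libraries of either tissue in edgeR, in DESeq2 or at an unadjusted p under 0.05. The part of crypt or other epithelial cells in the Lgr5 level was not tested.

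**Figure D3:**
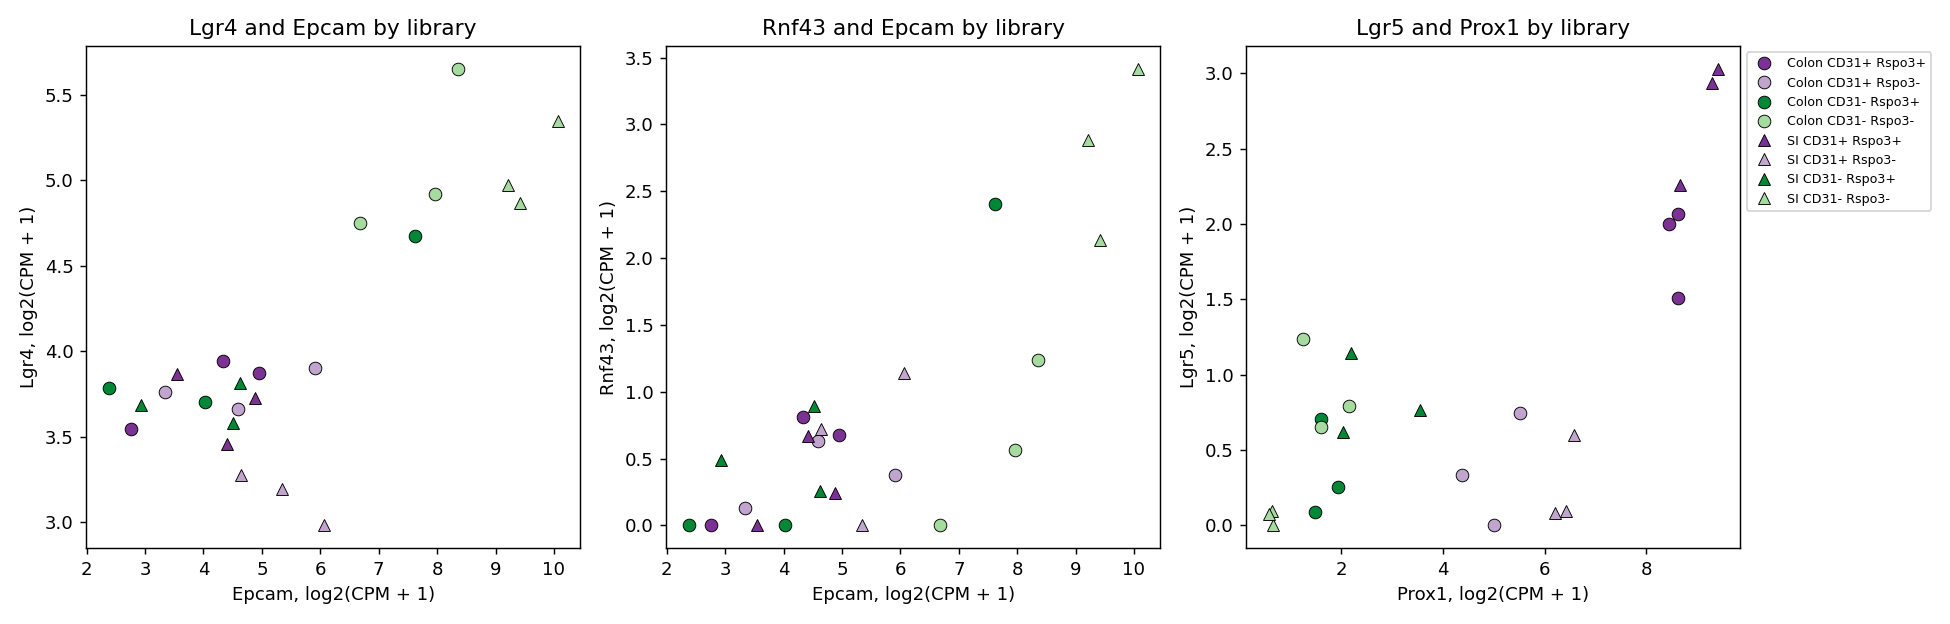
Lgr4 against Epcam, Rnf43 against Epcam and Lgr5 against Prox1, each as log2(CPM + 1), with 1 point per library coloured by group (24 libraries). Lgr5 is highest in the CD31+ Rspo3+ libraries, where Prox1 is at 348 to 677 CPM, and Rnf43 in the small intestinal CD31- Rspo3- libraries, where Epcam is at 594 to 1069 CPM.

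Lgr6, in skin a marker of stem cells of the hair follicle region, had 99 counts in 15 of 24 libraries and was not tested. Its highest group mean was in colon CD31- Rspo3- cells, with 0.742, 0.440 and 0.430 CPM, and its highest single library was small intestinal CD31- Rspo3+ library 1, with 0.767 CPM. Small intestinal CD31+ Rspo3+ libraries had 0 counts and CD31- Rspo3+ libraries 19, 4 and 0, so the groups overlapped at 0 and most of the counts came from 1 library. Among small intestinal Rspo3- cells it had 1 count in CD31+ and 22 in CD31- libraries, a ratio of 15.9 in favour of CD31- cells (95% counting interval 2.57 to 656). These intervals and floors cover counting error only, since amplified reads without molecular identifiers are not independent molecules.

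Per transcript length, Lgr4 was the leading receptor in every group. Its TPM mean was 11.1 in colon CD31- Rspo3- cells and 8.61 in small intestinal CD31- Rspo3- cells, where Lgr5 was at 0.383 and 0.0171 TPM and Lgr6 at 0.362 and 0.258 TPM. The gap was smallest in small intestinal CD31+ Rspo3+ cells, with 3.60 ± 0.623 TPM of Lgr4 and 1.99 ± 0.657 TPM of Lgr5. In colon CD31+ Rspo3+ cells the values were 3.81 ± 0.848 TPM of Lgr4 and 0.893 ± 0.311 TPM of Lgr5.

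Rnf43, a ligase that is itself a Wnt target in crypt stem cells, was at 0 to 1.36 CPM outside small intestinal CD31- Rspo3- cells in all but 1 library, a colonic one. Its levels were 0.404, 0.858 and 0.194 CPM in small intestinal CD31- Rspo3+ libraries, against 6.37, 3.39 and 9.68 CPM in CD31- Rspo3- libraries, with no overlap. The log2 difference of -3.73 did not pass (edgeR adjusted p = 0.0987), with 0.000546 to 0.238 over its alternatives. Against the same Rspo3- libraries, CD31+ Rspo3- libraries of the small intestine held 0.649, 0 and 1.21 CPM (log2 difference -3.40, adjusted p = 0.108, with 0.00148 to 0.232 over its alternatives).

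Colonic Rnf43 rested on single libraries. It was at 0, 0 and 4.30 CPM in colon CD31- Rspo3+ libraries, against 1.36, 0 and 0.478 CPM in CD31- Rspo3- libraries. The highest of these, with 68 counts, was library 3, which held 197 CPM of Epcam. The colonic CD31- Rspo3- libraries lay below the small intestinal ones without overlap, and the log2 difference of -3.43 did not pass (adjusted p = 0.168). Rnf43 was high in the same small intestinal libraries as the 15 epithelial markers (13617 to 24440 CPM in sum). The mitochondrial share of these libraries, 2.67 to 4.82%, was the highest of the series. In colon CD31- Rspo3- libraries the epithelial sums were 6347, 1713 and 4208 CPM, beside Rnf43 at 1.36, 0 and 0.478 CPM. In colon CD31- Rspo3+ library 3 the sum was 2567 CPM, beside Rnf43 at 4.30 CPM. The part of epithelial content or of the mitochondrial share in the Rnf43 level was not tested.

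Znrf3, the partner ligase of Rnf43, was present in all 24 libraries at 1.32 to 7.86 CPM, and neighbours in the order of its group means all overlapped. Its direction with the reporter differed between the CD31 fractions of the colon. It was at 1.32, 2.88 and 1.84 CPM in colon CD31+ Rspo3+ libraries, against 3.64, 7.86 and 2.46 CPM in CD31+ Rspo3- libraries, which overlapped. It was at 5.27, 6.82 and 6.45 CPM in colon CD31- Rspo3+ libraries, against 1.61, 3.34 and 2.15 CPM in CD31- Rspo3- libraries, which did not.

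The log2 difference of Znrf3 between Rspo3+ and Rspo3- cells was -1.21 in colon CD31+ cells (SE 0.426, edgeR adjusted p = 0.0461) and 1.38 in colon CD31- cells (SE 0.425, adjusted p = 0.047). The CD31+ call was lost without Rspo3- library 1 or 2 or Rspo3+ library 1 or 3 (adjusted p = 0.0533 to 0.356), and the CD31- call without Rspo3- library 1 or 3 or any Rspo3+ library (0.0769 to 0.172). The difference between the CD31 fractions, -2.59, passed (adjusted p = 0.0046) and held under all alternatives. Among Rspo3+ cells of the colon, Znrf3 was lower in CD31+ than in CD31- cells (log2 difference -1.62, SE 0.430, adjusted p = 0.00623), which also held throughout.

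In the small intestine Znrf3 passed in no pairwise comparison. It was at 4.04, 4.05 and 2.13 CPM in CD31+ Rspo3+ libraries, against 7.14, 3.81 and 5.17 CPM in CD31+ Rspo3- libraries, and the groups overlapped. It was at 5.65, 5.26 and 4.76 CPM in CD31- Rspo3+ libraries, against 2.63, 3.22 and 3.78 CPM in CD31- Rspo3- libraries, without overlap. The log2 differences were -0.65 (edgeR adjusted p = 0.319) and 0.70 (adjusted p = 0.224).

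Counted over the 6 tested genes, the reporter comparisons gave 7 calls higher and 3 lower in 24 tests. Small intestinal CD31- Rspo3+ cells had 3 higher (Rspo1, Rspo2 and Lgr5) and 1 lower (Lgr4), in a comparison in which 16.1% of all 19050 genes were called higher and 14.3% lower. Colon CD31- Rspo3+ cells had 2 higher (Rspo2 and Znrf3) and 1 lower (Lgr4), where 4.8% of all genes were called higher and 4.34% lower. Small intestinal CD31+ Rspo3+ cells had 1 higher (Lgr5) and 0 lower in edgeR, beside 9.23% and 10.8% of all genes. Colon CD31+ Rspo3+ cells had 1 higher (Lgr5) and 1 lower (Znrf3), beside 9.52% and 13.6% of all genes.

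The CD31 comparisons gave 2 calls higher, both of Lgr5, and 9 lower. Among Rspo3+ cells, 1 gene was higher and 3 lower in the colon, where 14.9% of all genes were called higher and 18.2% lower, and 1 higher and 2 lower in the small intestine, where the shares were 16.9% and 19.6%. Among Rspo3- cells, 0 were higher and 2 lower in the colon (16.1% and 16.4% of all genes) and likewise 0 and 2 in the small intestine (20.1% and 21.6%). The median log2 difference of the 6 genes was -1.64, -0.86, -1.47 and -2.02 in these comparisons, beside all-gene medians of -0.07, -0.01, -0.07 and -0.03.

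The tissue comparisons gave 1 call higher in colon, Lgr5 in CD31- Rspo3- cells (8.79% of all genes called higher and 8.81% lower), and 2 lower, both of Rspo2. These were in CD31- Rspo3+ cells (3.62% higher and 3.4% lower over all genes) and in CD31+ Rspo3+ cells (2.83% and 3.52%). The CD31+ call was a matter of 1 count in the colon and 92 counts in the small intestine, which puts the small intestine 100.3 times higher (95% counting interval 17.6 to 4005, edgeR adjusted p = 0.0269), and the groups overlapped at 0. It was lost without small intestinal library 1 or 2 or any colonic library (adjusted p = 0.0616 to 0.114). In CD31+ Rspo3- cells, where 2.72% of all genes were called higher and 1.71% lower, 0 of 6 were called in edgeR or in DESeq2, and 1 (Lgr4) had an unadjusted p under 0.05.

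Interaction tests asked whether the reporter difference itself differed between tissues or CD31 fractions, and gave 2 calls higher and 3 lower for the 6 genes. Between the tissues, 0 were called in CD31+ cells in edgeR, in DESeq2 or at an unadjusted p under 0.05 (0.64% of all genes higher and 1.29% lower) and 1 lower, Lgr5, in CD31- cells (4.91% and 3.48%). Between the CD31 fractions, Lgr5 was higher and Znrf3 lower in the colon (6.61% and 10.4% of all genes), and Lgr4 higher and Rspo1 lower in the small intestine (11.1% and 13.1%). Their values stand with the results taken up again at the end.

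**Figure D4:**
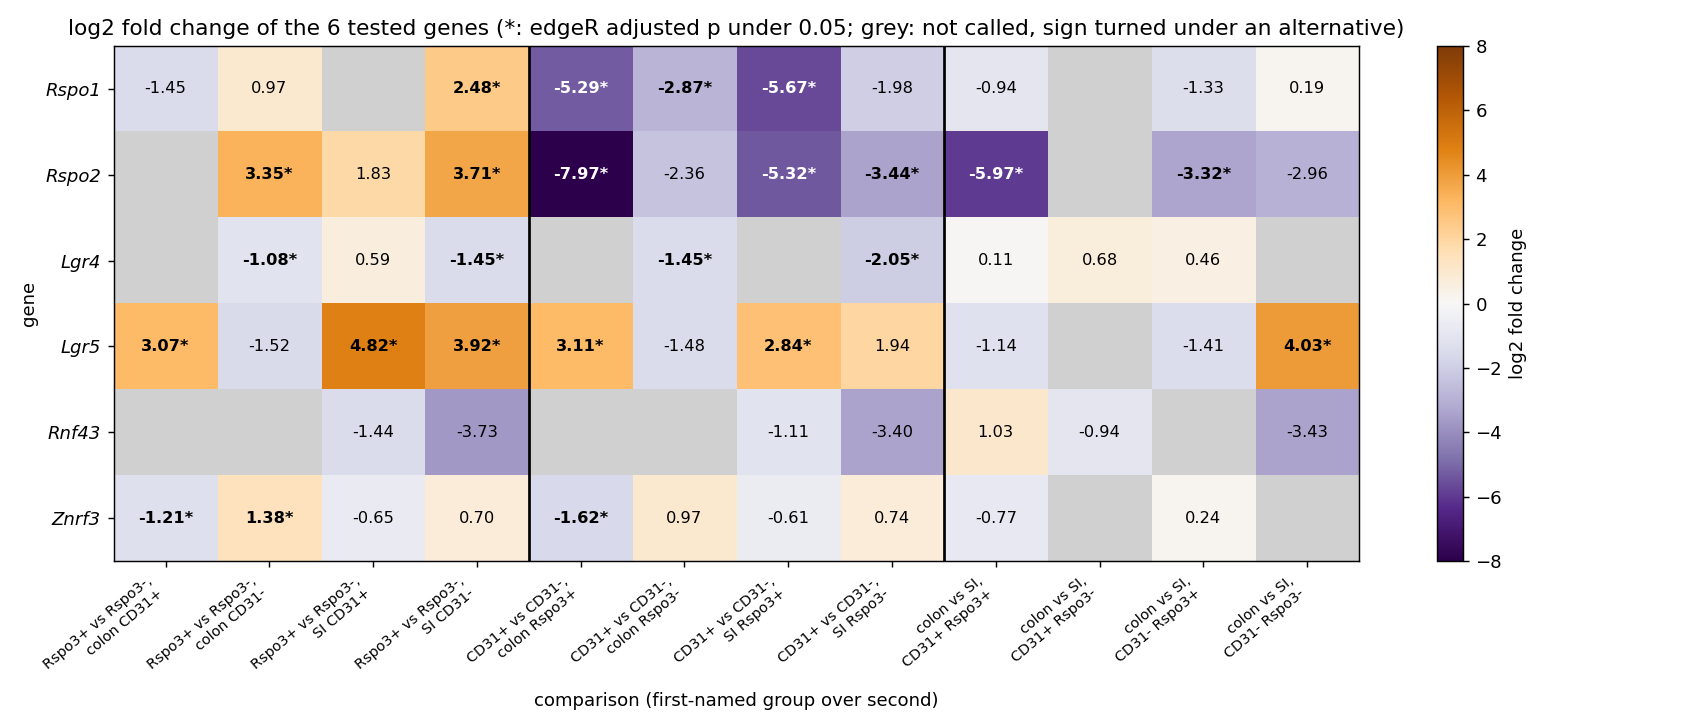
Log2 fold change (colour) of the 6 tested genes in the 12 pairwise comparisons, the first-named group over the second, with a star where the edgeR adjusted p was under 0.05. Grey cells were not called and turned sign under at least 1 alternative. Rspo1 and Rspo2 are low in CD31+ relative to CD31- Rspo3+ cells (-5.29 and -5.67 for Rspo1), and Lgr5 is high in Rspo3+ relative to Rspo3- CD31+ cells (3.07 and 4.82).

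The genes whose pattern was most like each member were found by Pearson correlation of log2 CPM over the 24 libraries, among 11473 genes, as a description of libraries that share their group structure. Slc37a3 and Lgi2 were among the genes closest to Rspo1 (r = 0.984 and 0.974). Rspo2 was closest to Bcat1, Cpz and Slc36a2 (r = 0.959, 0.954 and 0.946), and Cpz, a secreted carboxypeptidase that can bind Wnt proteins, averaged 142.8 CPM in small intestinal CD31- Rspo3+ cells against 3.08 CPM in CD31- Rspo3- cells.

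Lgr5 was closest to Rgs7, Olfm1 and Ccdc136 (r = 0.908, 0.908 and 0.904). Rgs7, a regulator of G-protein signaling, averaged 4.2 CPM in colon and 19.9 CPM in small intestinal CD31+ Rspo3+ cells, and under 1 CPM in all other groups. Lgr4 was closest to Trim40, Acta1 and Naip1 (r = 0.925, 0.922 and 0.915). Rnf43 was closest to Cftr, Gpx2 and Gjb1 (r = 0.936, 0.921 and 0.903), with Cftr, the chloride channel of secretory epithelia, at 21.3 CPM in small intestinal CD31- Rspo3- cells and at most 3.8 CPM elsewhere. Znrf3 had no close match, its nearest being Pdcd4 with r = 0.766.

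Some of the Wnt receptors on which the ligases act differed between the fractions as well. Of 15 Frizzled, Lrp, Ror and Ryk genes, 6 were higher and 1 lower in small intestinal CD31- Rspo3+ than in CD31- Rspo3- cells (median log2 difference 0.55, beside 0.11 over all genes, of which 16.1% were higher and 14.3% lower). In colon CD31- cells 1 was higher and 0 lower (median -0.04, beside 0, with 4.8% and 4.34% of all genes). Fzd4, a Frizzled of vessels, was the one that passed in both, at 139.8 CPM in colon CD31- Rspo3+ cells against 43.8 CPM in CD31- Rspo3- cells (log2 difference 1.67, edgeR adjusted p = 9.01e-05). In the small intestine it was at 112 CPM in CD31- Rspo3+ cells against 22.7 CPM in CD31- Rspo3- cells (2.31, adjusted p = 6.39e-07), and the co-receptor Lrp6 was at 104 against 47.5 CPM (1.13, adjusted p = 0.000169). Endothelial markers were higher in the same comparisons. The 8 of them summed to 305 to 401 CPM in colon CD31- Rspo3+ libraries, against 54.6 to 82.5 CPM in CD31- Rspo3- libraries, with 8 called higher, and to 123 to 161 CPM in small intestinal CD31- Rspo3+ libraries, against 26.3 to 31.0 CPM in CD31- Rspo3- libraries, with 7 called higher. Their part in the Fzd4 difference was not tested.

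In CD31+ cells 0 of the 15 Wnt receptors were higher and 5 lower in colon Rspo3+ than in Rspo3- cells, and 10 were not called (median -0.98, beside -0.05 over all genes, of which 9.52% were higher and 13.6% lower). In the small intestine 0 were higher and 4 lower, and 11 were not called (median -0.55, beside 0, with 9.23% and 10.8% of all genes). Higher calls stayed at 0 in DESeq2 and at an unadjusted p under 0.05. Fzd5, a Frizzled with roles in crypts and in vessels, averaged 6.04 CPM in colon CD31+ Rspo3+ cells against 38.7 CPM in CD31+ Rspo3- cells (log2 difference -2.68, adjusted p = 1.44e-06). Between CD31+ and CD31- cells, 7 to 10 of the 15 were lower and 1 to 3 higher in each of the 4 comparisons, where 16.4 to 21.6% of all genes were lower and 14.9 to 20.1% higher. Ror1, a Wnt5a receptor of mesenchyme, was at 1.12 CPM in small intestinal CD31+ Rspo3+ cells against 58.1 CPM in CD31- Rspo3+ cells, and Fzd6, at 33.5 against 0.551 CPM, ran opposite to it (log2 differences -5.74 and 5.88, adjusted p = 1.09e-07 and 9.11e-06). Between Rspo3+ and Rspo3- CD31+ cells, 7 of 7 lymphatic markers were higher in each tissue. Smooth muscle markers were lower there, 6 of 6 in the colon and 5 of 6 in the small intestine. The part of cell content in the Wnt receptor differences was not tested.

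Of 18 intracellular transducers such as Dvl1, Apc and Lef1, 2 to 3 were higher and 0 to 2 lower in each of the 4 reporter comparisons, where 4.8 to 16.1% of all genes were higher and 4.34 to 14.3% lower. Their medians of -0.09 to 0.11 stood beside all-gene medians of -0.05 to 0.11. Tcf7, a Wnt-responsive transcription factor, averaged 1.03 CPM in colon CD31+ Rspo3+ cells against 5.33 CPM in CD31+ Rspo3- cells (log2 difference -2.36, edgeR adjusted p = 0.00469), and 0.561 against 5.72 CPM in the small intestinal groups (-3.21, adjusted p = 0.000524). Tcf7 and Lef1 are also on the list of Wnt target genes that follows, so a call of either counts in both lists.

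Among 17 Wnt target genes, 16 of them tested, 2 were higher and 8 lower in colon CD31+ Rspo3+ cells (median -1.61, beside 9.52% and 13.6% of all genes) and 3 higher and 6 lower in small intestinal ones (median -0.39, beside 9.23% and 10.8%). In CD31- Rspo3+ cells 3 were higher and 2 lower in the colon (median -0.31, beside 4.8% and 4.34%) and 6 higher and 2 lower in the small intestine (median -0.12, beside 16.1% and 14.3%). Those lower included Sox17, an endothelial transcription factor of arteries, at 10.7 CPM in colon CD31+ Rspo3+ cells against 479 CPM in CD31+ Rspo3- cells, and the feedback inhibitor Nkd2 at 1.16 against 13.5 CPM (log2 differences -5.49 and -3.54, adjusted p = 1.63e-06 and 1.84e-06). Prox1, on this list and on that of lymphatic markers, was among those higher. The part of lymphatic or other cell content in the Wnt target differences was not tested. In CD31- cells Myc was higher with the reporter, at 475 CPM in colon Rspo3+ cells against 133 CPM in Rspo3- cells (1.83, adjusted p = 0.000365) and at 256 against 42.7 CPM in the small intestine (2.59, adjusted p = 2.24e-06).

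Cell-surface heparan sulfate proteoglycans, to which R-spondins also bind, were in the main lower in CD31+ cells. Of 10 syndecans and glypicans, 9 were tested, and 6 to 7 were lower and 0 to 1 higher in each of the 4 CD31 comparisons, beside 16.4 to 21.6% of all genes lower and 14.9 to 20.1% higher. Their medians were -4.29 to -2.42, beside -0.07 to -0.01 over all genes. All 7 fibroblast markers were called lower in the same 4 comparisons. The part of fibroblast content in the proteoglycan differences was not tested. Gpc3 averaged 6.95 CPM in small intestinal CD31+ Rspo3+ cells against 518 CPM in CD31- Rspo3+ cells (log2 difference -6.23, edgeR adjusted p = 3.40e-09), and Sdc4 8.49 against 169 CPM (-4.29, adjusted p = 3.47e-08). The calls higher were of Sdc1, a syndecan of epithelium and plasma cells, which averaged 271 CPM in colon CD31+ Rspo3+ cells against 46.2 CPM in CD31- Rspo3+ cells (2.55, adjusted p = 0.000213). In the small intestine the Sdc1 difference of 1.24 (adjusted p = 0.0327) was lost without CD31+ library 1 or 3 or CD31- library 1 or 2 (0.0638 to 0.107).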

How the data were processed

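The labels' protocols give a Qiagen kit for RNA and SMART-Seq v4 libraries, a full-length chemistry without strand information. Salmon 1.3.0, R 4.0.1 and build mm10 are named in the submitters' processing notes, and further settings were not given in the sources used here. Estimated counts per gene, already whole numbers, and log2(TPM + 1) values were deposited by the authors, and TPM was computed back from the log2 values. Gene symbols were found for 54096 of 54418 IDs (99.4%).

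All 24 libraries entered 1 edgeR quasi-likelihood model (edgeR 4.0.16, R 4.3.3) with TMM scaling, filterByExpr (minimum count 10, total 15, 19050 genes kept) and 1 mean per group. Adjusted p is Benjamini-Hochberg over all genes tested within a comparison, called under 0.05. Fold changes are log2, first-named group over second. The common biological coefficient of variation was 0.429. The test was tried on simulated data first. Alternatives were DESeq2 1.42.0, limma 3.58.1 (voom, and trend on log2(TPM + 1)), RLE size factors, other count filters, only the libraries compared, and leaving out each library.

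Named genes were the 8 members, Rspo3, up to 3 called genes per pathway list and comparison with 1 in the other direction, the 3 genes most like each member (those with at least 10 CPM in a group), and defining markers. Of the genes most like Rspo1, 1 is not reported here. Smoc2, Krt20 and Fabp1 were named after their values were seen. The members and lists were chosen with earlier results of these data known. Libraries of a group correlated at r = 0.918 to 0.981, and none were duplicates.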

Additional observations from a re-analysis of the deposited data

Results flagged for a closer look

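In 5 cases the difference between Rspo3+ and Rspo3- cells itself differed between groups by an interaction test in edgeR (log2 scale, 3 libraries per group). The Lgr5 difference was lower in colon than in small intestinal CD31- cells by -5.44 (adjusted p = 0.0223). It missed the threshold without small intestinal Rspo3+ library 1, small intestinal Rspo3- library 2 or 3, or colon Rspo3- library 1 (0.0511 to 0.0647). The other 4 compare CD31+ with CD31- cells of 1 tissue. In the colon, the Lgr5 difference was higher in CD31+ cells by 4.59 (adjusted p = 0.0185) and that of Znrf3 lower by -2.59 (adjusted p = 0.0046). In the small intestine, the Rspo1 difference was lower in CD31+ cells by -3.69 (adjusted p = 0.0395, lost without 9 of the 12 libraries in turn, 0.059 to 0.291), and that of Lgr4 was higher by 2.05 (adjusted p = 0.000527).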

How the results depend on the processing

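Of 96 results for the 6 tested genes, 29 were called, and 12 of these kept their call and direction under every alternative run while 17 lost the call under at least 1. Of the 67 not called, 18 passed under some alternative and 49 under none, and 21 of those 49 turned sign under some alternative, for which no direction is given. No called value turned sign. Leaving out each of 24 libraries in turn moved the counts of calls to 4 to 8 higher and 1 to 3 lower in the reporter comparisons, 1 to 3 higher in the CD31 comparisons, 0 to 1 higher and 0 to 3 lower in the tissue comparisons, and 2 to 3 higher and 1 to 4 lower among interactions. With limma-trend on TPM there were 0 higher and 4 lower between tissues, and 6 higher and 6 lower interactions. Lower calls between tissues were 1 with DESeq2, and 4 with voom or with only the libraries compared, where 1 interaction was higher. Leaving out together colon CD31- Rspo3+ library 3 and colon CD31+ Rspo3- library 3, an alternative chosen after seeing the data, gave 6 higher and 3 lower reporter calls, 3 and 10 for CD31, 1 and 2 between tissues and 3 and 3 interactions. The Lgr4 interaction in the colon, 1.10 (edgeR adjusted p = 0.0506), then passed (1.58, 0.005), as did Znrf3 between CD31+ and CD31- colon Rspo3- cells (1.27, 0.0345). Among pathway genes, tissue calls higher were 15 targets and 8 proteoglycans with DESeq2 (1 proteoglycan lower), and 10 and 2 proteoglycans without these libraries, where 6 were higher with the reporter. The following uncalled interactions turned sign when a library was left out. The tissue difference of the reporter effect in CD31- cells ran from -0.672 to 0.149 for Rspo2 and from -2.72 to 6.42 for Rnf43 (-2.70 without both of those libraries), and the small intestinal CD31 difference from -2.39 to 4.27 for Rspo2. The cause of these changes was not tested. Between colon and small intestinal CD31+ Rspo3- cells, 844 genes passed in edgeR, 1531 in DESeq2 and 320 with only the libraries compared, and for the tissue difference of the reporter effect in CD31+ cells 367 in edgeR and 790 in DESeq2. RLE factors put the all-gene median at 0 in the small intestinal CD31- reporter comparison, against 0.108 with TMM. No paired analysis was possible because the columns carry no replicate number. Low counts, 99 for Lgr6 and 3 for Rspo4, limit what can be said of those genes.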
